A study of Mus musculus with 12 samples.

Results

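The genes described here run the cell division cycle: 50 genes for cyclins and their kinases, DNA replication, mitosis and the inhibitors of cyclin-dependent kinases. They were taken by gene name from 36981 genes named on a mouse expression array, where 96 probes carry their names. The rule that picks them uses gene names and no measured value. Of the 50 genes, 42 entered the tests because 1 group or more had their probe well above background on each of its 3 arrays, and 36 stood above it on all 12 arrays.

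Total RNA of 12 mouse heart samples was hybridised to single-colour Agilent arrays, 3 arrays per group. TG+MI samples came from mice transgenic for CCRR, a long non-coding RNA, after myocardial infarction (MI), the death of heart muscle when its blood supply is cut. WT+MI samples came from wild-type C57/BL6 mice after infarction, TG samples from CCRR transgenic mice without infarction, and WT samples from wild-type C57/BL6 mice without infarction. The study asks whether CCRR limits inflammation after infarction. The strain of the transgenic mice, the promoter of the transgene, the time after infarction, the part of the heart taken and any sham operation are not given in the labels. Separate animals are not stated for the replicates either, so the p-values measure the spread between arrays of a group, which may be technical.

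All 9 cardiomyocyte markers looked up were well above background in each group. The 75th percentile of the signal lay between 138 and 260 per array, between 47.0% and 55.2% of probes were well above background, and 0 spots were saturated. Slide 1 held the WT and WT+MI arrays with TG 1 and TG 2, and slide 2 held TG 3 and the TG+MI arrays. WT 1 stood apart in transcripts of red cell precursors: Alas2, which starts haem synthesis there, lay at 7.24, 3.13 and 4.24 on the WT arrays in replicate order. Other arrays stood apart too: TG+MI 3 on the third principal component of the tested genes (-66.8, against -7.28 to 16.7 for the rest), TG 1 in the brown fat gene Ucp1 (4.59, against -5.32 and -5.76 on the other TG arrays) and WT+MI 1 in the atrial gene Sln (6.11, against -5.62 and -5.14).

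The cycle is driven by cyclins bound to cyclin-dependent kinases. D-type cyclins start it, E2F factors then switch on genes for DNA replication, and a later wave of genes, bound through MuvB complexes, builds the mitotic spindle and kinetochores. Most adult cardiomyocytes have left the cycle, and in the adult heart most dividing cells are of other types, such as endothelium, fibroblasts and blood-derived cells.

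The promoters of both waves are known for different short sequences, and 200 bases before the start of 6 members are shown, of 3 replication genes that rose and 3 mitosis genes that fell after infarction in WT hearts. RefSeq windows (GRCm38.p6, from 250 bases before to 50 after the start) were at hand for 41 of the 50 members. In the first 3 sequences capitals mark an E2F motif, searched on both strands as TTTCCCGC, TTTGGCGC and TTTCGCGC. They are Cdc6 (chr11:98907951-98908150, plus strand), Mcm5 (chr8:75109309-75109508, plus strand) and Mcm6 (chr1:128359706-128359905, minus strand), read 5′ to 3′ along the gene.
Cdc6: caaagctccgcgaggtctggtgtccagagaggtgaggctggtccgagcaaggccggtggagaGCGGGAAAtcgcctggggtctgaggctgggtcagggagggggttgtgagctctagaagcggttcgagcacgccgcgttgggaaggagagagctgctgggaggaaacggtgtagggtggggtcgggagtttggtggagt
Mcm5: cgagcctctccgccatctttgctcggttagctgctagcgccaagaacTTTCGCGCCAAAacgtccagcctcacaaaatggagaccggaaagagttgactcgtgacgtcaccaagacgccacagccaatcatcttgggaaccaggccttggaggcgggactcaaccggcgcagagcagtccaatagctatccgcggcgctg
Mcm6: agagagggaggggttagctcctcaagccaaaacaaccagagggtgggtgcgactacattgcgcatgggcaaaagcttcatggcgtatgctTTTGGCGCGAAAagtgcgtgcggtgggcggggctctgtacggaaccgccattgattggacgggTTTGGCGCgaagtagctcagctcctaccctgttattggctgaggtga
In the next 3, capitals mark the cell cycle genes homology region (CHR), searched on both strands as TTTGAA and TTCGAA. They are Mki67 (chr7:135716380-135716579, minus strand), Top2a (chr11:99024190-99024389, minus strand) and Ccnb2 (chr9:70421555-70421754, minus strand).
Mki67: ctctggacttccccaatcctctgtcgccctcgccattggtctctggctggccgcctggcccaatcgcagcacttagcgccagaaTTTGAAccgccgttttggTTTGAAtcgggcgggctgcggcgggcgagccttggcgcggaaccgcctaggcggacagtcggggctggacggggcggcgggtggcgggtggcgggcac
Top2a: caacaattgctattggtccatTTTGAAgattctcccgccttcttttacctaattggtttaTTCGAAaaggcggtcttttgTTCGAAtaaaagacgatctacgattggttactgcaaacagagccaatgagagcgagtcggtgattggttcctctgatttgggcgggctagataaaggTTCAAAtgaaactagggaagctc
Ccnb2: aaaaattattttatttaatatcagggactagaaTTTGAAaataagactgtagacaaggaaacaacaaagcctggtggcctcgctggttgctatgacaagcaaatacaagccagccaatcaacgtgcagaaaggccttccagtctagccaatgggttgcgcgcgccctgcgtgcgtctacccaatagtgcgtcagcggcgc
In Mcm5 2 of the E2F matches overlap, and so do 2 of the 3 in Mcm6. The CHR match marked in Ccnb2 begins at base -167 relative to the start. A second CHR match of Ccnb2 begins at base 5 after the start, outside the bases shown. An E2F motif stood in the windows of 6 of 13 replication members and 1 of 19 G2 and mitosis members, against 1.91% of 27025 genes with a window. A CHR motif stood in 14 of 19 G2 and mitosis members and 3 of 13 replication members, against 19.4% of all genes. The sequence CCAAT, searched on both strands, stood in 16 of 19 mitosis members and 9 of 13 replication members, against 37.9% of all genes. A match describes these letters in this window and does not show that a factor binds there.

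Infarction in wild-type hearts was examined first. In WT+MI hearts the inhibitor Cdkn1a and 6 genes of DNA replication rose, while 12 genes of G2 and mitosis, among them Cenpf, Ccna2 and Mki67, fell. Of the 42 tested members, 7 were higher and 17 lower, against 18.6% of all 19761 tested genes higher and 29.3% lower. The higher share of the members, 16.7%, was near that of all genes, and the lower share was 40.5%. Their median difference was -0.24, against -0.14 for all tested genes. Values are log2 levels relative to the array's 75th percentile, differences are log2 with limma's standard error, and n is 3 per group. Since samples are bulk tissue, fewer cells of a type and less RNA per cell cannot be told apart.

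**Figure D1:**
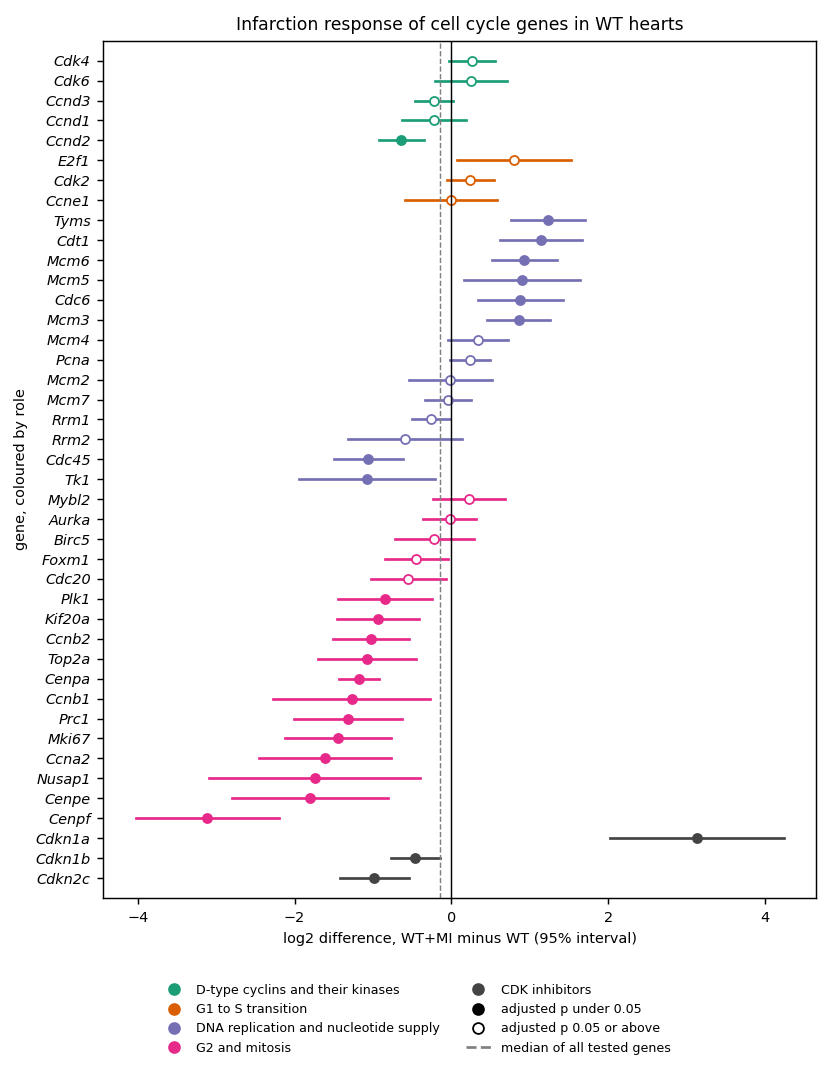
Log2 difference of WT+MI from WT for the 42 tested members, with 95% intervals from limma. Colours give the role, filled points have a limma adjusted p under 0.05, and the dashed line is the median of all tested genes (-0.14). The replication genes spread to both sides of 0, from -1.08 to 1.23, and 16 of the 17 mitosis genes lie below 0.

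Cdkn1a encodes p21, which binds and inhibits cyclin-dependent kinases and is a textbook target of p53. It lay at 3.56, 2.77 and 2.15 in WT+MI hearts, against -0.18, -0.44 and -0.31 in WT hearts. All WT+MI arrays stood more than 2 log2 units above every WT array, and WT+MI 1 was the highest of its group. The difference was 3.13 ± 0.50, or 8.78-fold (limma adjusted p = 0.00086). A second probe of Cdkn1a, above background on 4 arrays, differed by 2.14. The other inhibitors went the other way. Cdkn2c encodes p18, which binds Cdk4 and Cdk6, and it lay at -0.30, 0.20 and 0.56 in WT+MI hearts, against 1.18, 1.08 and 1.15 in WT hearts. The groups did not overlap, and Cdkn2c fell by 0.98 on the log2 scale (limma adjusted p = 0.00283). Cdkn1b, which encodes p27, lay at 2.01, 1.85 and 2.35 in WT+MI hearts, against 2.53, 2.59 and 2.48 in WT hearts. It was lower on every WT+MI array, with a difference of -0.46 ± 0.14 (limma adjusted p = 0.0216), but a second probe differed by -0.03 and the call was lost with the mean over probes (-0.25), and without WT 1, WT 2, WT+MI 1 or WT+MI 2.

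Among the 14 replication and nucleotide supply genes, 6 rose (42.9%, against 18.6% of all tested genes) and 2 fell (14.3%, against 29.3%), with a median of 0.29. Of the 12 that were well above background on all arrays, 5 rose and 1 fell. Tyms, which makes thymidylate for DNA, lay at 1.28, 1.13 and 1.16 in WT+MI hearts, against 0.11, -0.26 and 0.03 in WT hearts. The WT+MI arrays lay close together and all above the WT arrays, with a difference of 1.23 ± 0.21, or 2.35-fold (limma adjusted p = 0.00125). Its 3 probes differed by 0.47 to 1.23.

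Cdt1 and Cdc6 load the MCM helicase onto replication origins. Cdt1 lay at 1.13, 0.82 and 1.28 in WT+MI hearts, against 0.12, -0.22 and -0.11 in WT hearts, a difference of 1.15 ± 0.24 or 2.21-fold (limma adjusted p = 0.00304). Cdc6 lay at -2.35, -2.78 and -1.84 in WT+MI hearts, against -3.25, -3.12 and -3.24 in WT hearts, a difference of 0.88 ± 0.24 (limma adjusted p = 0.0133). For both genes every WT+MI array was above every WT array. Cdc6 is dim, well above background on 10 of the 12 arrays, and with another background correction (normexp) its difference was 0.19 and its call was lost.

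Mcm3, Mcm5 and Mcm6 are subunits of that helicase, whose 6 parts work as a ring. Mcm6 lay at 3.43, 2.92 and 3.28 in WT+MI hearts, against 2.34, 2.07 and 2.41 in WT hearts, and differed by 0.93 ± 0.19 (limma adjusted p = 0.00278). Mcm3 lay at 2.02, 1.66 and 2.35 in WT+MI hearts, against 1.28, 1.06 and 1.14 in WT hearts, and differed by 0.86 ± 0.18 (limma adjusted p = 0.00361). In neither gene did the groups overlap, and the 4 probes of Mcm3 differed by 0.50 to 0.86. Mcm5 rose by 0.90 ± 0.33 with a limma adjusted p of 0.0454, which was 0.0593 with slide as a block, and the call was kept on leaving out 3 of the 12 arrays and lost on leaving out 9. The other 3 subunits did not pass: the difference was 0.34 ± 0.17 for Mcm4, -0.02 ± 0.24 for Mcm2 and -0.05 ± 0.13 for Mcm7. Thus 3 of the 6 subunits passed; whether the subunits differed from each other was not tested.

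The 2 replication genes that fell were Cdc45 and Tk1. Cdc45 entered the tests through the WT arrays alone, the group where it was highest, so its fall is not read as support. Cdc45, which joins the MCM ring to form the active helicase, lay at -3.89, -3.94 and -4.27 in WT+MI hearts, against -2.79, -3.01 and -3.12 in WT hearts. It was below background on all WT+MI arrays. The measured difference was -1.06 (limma adjusted p = 0.00193), and -0.15 with normexp, where the call was lost. With the WT+MI values raised to the lowest value well above background on each array, Cdc45 was 1.48-fold lower in WT+MI hearts. Tk1, a kinase that salvages thymidine, lay at -2.53, -1.76 and -0.68 in WT+MI hearts, against -0.55, -0.71 and -0.49 in WT hearts. WT+MI 3 overlapped the WT arrays, and the call (-1.08 ± 0.39, limma adjusted p = 0.0436) was lost without any 1 of the WT or TG arrays, without WT+MI 1 or WT+MI 2 and without TG+MI 2, and with slide as a block (0.0569), within slide 1 (0.0647) and with the replicate block (0.0665); without WT+MI 1 the difference was -0.64. The 6 other replication genes, Mcm2, Mcm4, Mcm7, Pcna, Rrm1 and Rrm2, differed by -0.59 to 0.34 and did not pass.

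Of the 6 replication genes that rose, 5 held an E2F motif in their window, against 0 of the 2 that fell and 1 of the 5 with a window that did not pass. Of 7 neutrophil markers 6 rose as well, with a median difference of 4.85. Their summed level was 307 to 505 times the 75th percentile in WT+MI hearts, against 140 to 157 in WT hearts. The bright marker Csf3r alone averaged 150 in WT+MI hearts and 138 in WT hearts. In TG+MI against TG 4 of these 7 rose too, while 0 of the 14 replication genes passed. Of 10 monocyte and macrophage markers 4 rose here, with a median of 0.43. Their sums were 118 to 143 in WT+MI hearts, against 98.3 to 114 in WT hearts. The part of these cells in the result was not tested.

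Of the 17 tested genes of G2 and mitosis, 12 fell and 0 rose in WT+MI hearts (limma, with 14 lower and 0 higher at an unadjusted p under 0.05), a share of 70.6% against 29.3% of all tested genes. Their median was -1.08. Among the 14 measured on all 12 arrays, 9 fell. Cenpf, a large protein of the outer kinetochore that builds up in G2, lay at -1.20, -0.68 and 0.24 in WT+MI hearts, against 2.32, 2.47 and 2.91 in WT hearts. The groups were more than 2 log2 units apart at their nearest arrays, and Cenpf was 8.64-fold lower (-3.11 ± 0.41, limma adjusted p = 0.000393), a larger change than that of any other mitosis member. Its probe lies at mm9 chr1:191465934-191465993. A second probe, above background on 2 arrays, differed by -1.39.

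Cenpa is the histone H3 variant that marks centromeres. It lay at 1.19, 1.37 and 1.41 in WT+MI hearts, against 2.32, 2.69 and 2.49 in WT hearts, with no overlap and little spread in either group. It fell by 1.18 on the log2 scale, 2.26-fold (limma adjusted p = 9.82e-05). Cenpe, a kinetochore motor, lay at -2.69, -3.89 and -2.03 in WT+MI hearts, against -1.38, -1.62 and -0.20 in WT hearts. All WT+MI arrays were lower, but the arrays of each group spread widely, and the difference was -1.81 ± 0.45 (limma adjusted p = 0.00815).

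The cyclins of G2 and mitosis fell as well. Ccna2, cyclin A2, lay at -3.01, -3.00 and -1.57 in WT+MI hearts, against -0.46, -1.43 and -0.85 in WT hearts, and was 3.06-fold lower (limma adjusted p = 0.00609). WT+MI 3 came nearest to the WT arrays, and a second probe differed by -0.74. Ccnb2, cyclin B2, lay at -1.22, -1.71 and -1.25 in WT+MI hearts, against -0.16, -0.85 and -0.10 in WT hearts, and was 2.03-fold lower (limma adjusted p = 0.00365). Ccnb1, cyclin B1, was above background on 8 of 12 arrays and differed by -1.27 ± 0.45 (limma adjusted p = 0.0389). That call was lost without any 1 of the WT arrays, without WT+MI 1 or WT+MI 2, and with normexp (-0.37). Ccnb1 too entered the tests through the WT arrays alone, the group where it was highest, so its fall is not read as support.

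Mki67, the source of the Ki-67 antigen used to mark cycling cells, lay at -1.09, -1.61 and -0.49 in WT+MI hearts, against 0.79, -0.05 and 0.42 in WT hearts. The groups did not overlap, and it was 2.73-fold lower (limma adjusted p = 0.00346). Top2a, the topoisomerase that untangles sister chromatids, lay at -2.89, -3.01 and -1.85 in WT+MI hearts, against -1.19, -1.94 and -1.38 in WT hearts. WT+MI 3 overlapped WT 2, and the difference was -1.08 ± 0.28 (limma adjusted p = 0.0101). Prc1, which bundles microtubules of the central spindle, lay at -1.82, -2.56 and -1.29 in WT+MI hearts, against -0.40, -0.90 and -0.43 in WT hearts. It was 2.49-fold lower (limma adjusted p = 0.00628), again with WT+MI 3 nearest to WT.

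Kif20a, a kinesin needed for cytokinesis, lay at -2.74, -2.89 and -2.35 in WT+MI hearts, against -1.42, -2.02 and -1.71 in WT hearts, and differed by -0.94 ± 0.24 (limma adjusted p = 0.00842). Plk1, a kinase that drives entry into and passage through mitosis, lay at -2.12, -2.51 and -1.86 in WT+MI hearts, against -1.45, -1.54 and -0.96 in WT hearts, and differed by -0.85 ± 0.27 (limma adjusted p = 0.0258). Neither gene had overlapping groups, but the call of Plk1 was lost without WT 3, WT+MI 1 or WT+MI 2. Nusap1, a spindle protein, differed by -1.74 ± 0.61 (limma adjusted p = 0.0366), a call that was lost without WT 1, where it was -0.95, and without any 1 of the WT+MI arrays.

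The 5 mitosis genes that did not pass were Cdc20, which activates the anaphase-promoting complex, Foxm1 and Mybl2, transcription factors of the mitotic wave, the kinase Aurka, and Birc5, which encodes survivin. Their differences were -0.55 ± 0.22, -0.45 ± 0.18, 0.22 ± 0.21, -0.02 ± 0.15 and -0.22 ± 0.23, in that order. The other 7 mitosis members and Ccne2 were not tested: Cdk1, Bub1b and Ccne2 were above background on 0 of 12 arrays, and Cdc25b, Aurkb, Bub1, Kif11 and Tpx2 on 1 to 5. A CHR motif stood in the windows of 7 of the 10 mitosis genes that fell and have a window, 2 of the 4 that did not pass and all 5 of those not tested.

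WT 1 held the highest of the 3 WT values for 9 of the 17 mitosis genes, and WT+MI 3 the highest of its group for 14. The summed level of 8 erythroid markers was 479 to 601 times the 75th percentile in WT+MI hearts, against 671 to 1107 in WT hearts, and 2 of the 4 that could be tested fell; Rhag was above background on 0 arrays. Without WT 1, 10 of the 17 mitosis genes fell and the median was -0.92. With normexp 11 fell, and the median was -0.42. Endothelial markers, 6 in all, summed to 49.5 to 54.9 in WT+MI hearts, against 65.5 to 69.6 in WT hearts. Of the 6, 3 fell and 3 lay above 0. Kdr alone averaged 16.3 in WT+MI hearts and 31.8 in WT hearts. Of 9 cardiomyocyte markers 5 fell. The part of these cell types in the result was not tested.

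The role medians by array summarise the same values and are no further support. For G2 and mitosis the median deviation from each gene's mean was -0.47, -0.72 and 0.05 in WT+MI hearts, against 0.75, 0.38 and 0.60 in WT hearts. For replication it was 0.26, 0.00 and 0.60 in WT+MI hearts, against 0.00, -0.01 and -0.09 in WT hearts, with WT+MI 2 near WT. WT+MI 3 was the highest of its group on both, so its replication and mitosis genes were high together.

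**Figure D2:**
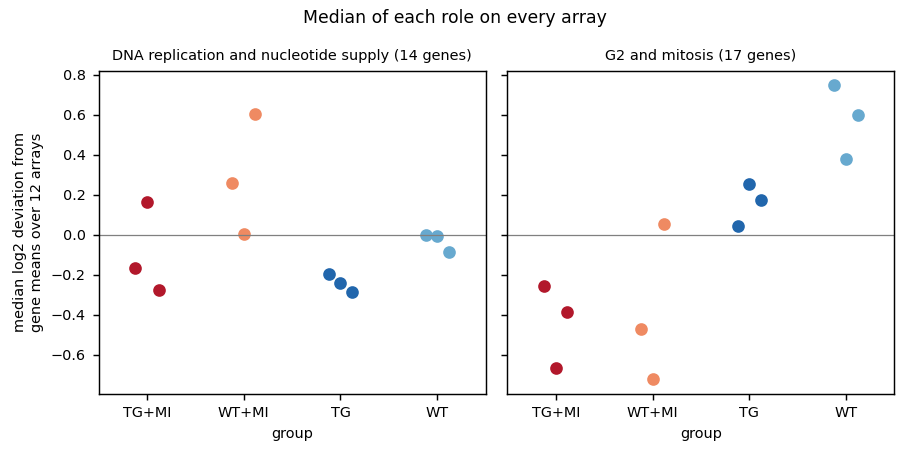
Median log2 deviation from each gene's mean over 12 arrays, for the 14 tested replication genes and the 17 tested G2 and mitosis genes, with 1 point per array. The mitosis medians of the WT arrays, 0.38 to 0.75, lie above all others, and that of WT+MI 3, at 0.05, is the highest of the infarcted hearts.

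Of the genes that act before replication, 1 passed. Ccnd2, cyclin D2, which with Cdk4 or Cdk6 opens the cycle, lay at 5.07, 5.28 and 5.49 in WT+MI hearts, against 5.97, 5.97 and 5.82 in WT hearts. The groups did not overlap, and it differed by -0.64 ± 0.13, 1.56-fold lower (limma adjusted p = 0.00281). The other D-type cyclins and kinases differed by -0.22 (Ccnd1), -0.22 (Ccnd3), 0.26 (Cdk4) and 0.25 (Cdk6). E2f1, the activating E2F factor, was higher on all WT+MI arrays by 0.80 ± 0.33 but missed the threshold (limma adjusted p = 0.0655). Its partners of the G1 to S step, Cdk2 and Ccne1, differed by 0.24 ± 0.14 and -0.01 ± 0.26.

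The transgene without infarction was examined in TG against WT. Cenpf fell, and no other member passed: of 42 tested, 1 was lower and 0 higher (limma, with 7 lower and 1 higher at an unadjusted p under 0.05), against 1.13% of all tested genes lower and 1.49% higher. Cenpf lay at 0.62, 1.22 and 0.33 in TG hearts, against 2.32, 2.47 and 2.91 in WT hearts. All TG arrays were more than 1 log2 unit below every WT array, and the difference was -1.84 ± 0.41, 3.58-fold lower (limma adjusted p = 0.0457). Within slide 1, where TG 1 and TG 2 lay, it was -1.64 (adjusted p = 0.0932), and the call was also lost without any 1 of the WT or TG arrays, without WT+MI 2 and without TG+MI 1.

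Below that threshold the mitosis genes leaned one way. All 17 tested lay lower in TG hearts, by 0.01 to 1.84, with a median of -0.40 against -0.06 for all genes, and the median was -0.31 without WT 1. In 6 of the 17 and in 9 of the 14 replication genes every TG array was below every WT array, against 20.9% of all tested genes. Mki67 lay at -0.36, -0.24 and -0.18 in TG hearts, against 0.79, -0.05 and 0.42 in WT hearts. Its groups did not overlap, but with a difference of -0.65 ± 0.31 it did not pass (limma adjusted p = 0.298). Cenpa differed by -0.48 ± 0.11 and came close to the threshold (limma adjusted p = 0.0537). Cdkn1a was the one member far on the other side: it lay at 0.92, 1.33 and 1.47 in TG hearts, against -0.18, -0.44 and -0.31 in WT hearts. Every TG array was more than 1 log2 unit above every WT array, yet the difference of 1.55 ± 0.50 did not pass (limma adjusted p = 0.141). Atrial markers stood apart in this comparison: the summed level of 4 was 476 to 1495 times the 75th percentile in TG hearts, against 54.4 to 55.9 in WT hearts, and 2 of the 4 passed (Nppa and Myl4, both higher). Erythroid markers summed to 295 to 530 in TG hearts, against 671 to 1107 in WT hearts, and all 4 tested lay lower without passing. Of 3 tested granulocyte precursor markers 2 fell (Ltf and Camp), and Elane differed by -0.02. Ltf was above background on the WT arrays alone, so it entered the tests only through the group where it was high. The 7 listed summed to 0.852 to 1.38 in TG hearts, against 1.32 to 2.38 in WT hearts. All 9 cardiomyocyte markers lay lower in TG hearts too, with a median of -0.36 and 0 called. All 8 resident fibroblast markers lay higher, with a median of 0.88 and 2 called. The part of these cells in the values above was not tested. TG and WT+MI were both set against the same WT arrays, so their differences are not independent.

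Infarction in transgenic hearts was examined in TG+MI against TG, whose group means share no array with those of WT+MI against WT. Both comparisons took their spread from the same model over 12 arrays, so their calls are not independent. Cdkn1a rose and Top2a fell, and the other 40 tested members did not pass, against 5.21% of all tested genes higher and 3.64% lower. Cdkn1a lay at 2.43, 2.65 and 4.53 in TG+MI hearts, against 0.92, 1.33 and 1.47 in TG hearts. The groups did not overlap, and TG+MI 3 stood nearly 2 log2 units above the other TG+MI arrays. The difference was 1.96 ± 0.50, 3.89-fold (limma adjusted p = 0.0381). Top2a lay at -3.09, -3.05 and -2.95 in TG+MI hearts, against -1.98, -1.74 and -1.99 in TG hearts. Both groups were tight and did not overlap, with a difference of -1.13 ± 0.28 (limma adjusted p = 0.0348).

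Both calls were lost with slide as a block, where the difference rests on TG 3 alone as the array of its group on slide 2: 1.73 for Cdkn1a (adjusted p = 0.374) and -1.04 for Top2a (adjusted p = 0.348). Each was also lost without any 1 of the TG arrays, without WT 3 and without TG+MI 2, Cdkn1a also without WT 1, WT 2 or WT+MI 2, and Top2a without TG+MI 1 or TG+MI 3. The G2 and mitosis genes had a median of -0.58 in this comparison, against 0.04 for all genes, with 15 of 17 below 0. In 10 of the 17 every TG+MI array was below every TG array, against 12.8% of all tested genes. Of 8 resident fibroblast markers 4 fell, with a median of -1.36. Their sums were 229 to 235 in TG+MI hearts, against 370 to 488 in TG hearts. Of 7 neutrophil markers 4 rose, with a median of 3.64. Their sums were 147 to 164 in TG+MI hearts, against 116 to 126 in TG hearts. Most of these neutrophil sums came from Csf3r, which averaged 124 in TG+MI hearts and 120 in TG hearts. The 4 atrial markers summed to at most 322 in TG+MI hearts, against 476 to 1495 in TG hearts, without a call, and the part of these cells was not tested. Mki67 lay at -1.02, -1.73 and -0.93 in TG+MI hearts, against -0.36, -0.24 and -0.18 in TG hearts. These groups did not overlap, and the difference of -0.96 ± 0.31 did not pass (limma adjusted p = 0.0768). Ccna2 lay at -2.84, -3.28 and -2.45 in TG+MI hearts, against -1.74, -1.63 and -1.62 in TG hearts, and differed by -1.19 ± 0.38 (limma adjusted p = 0.0786). Prc1 lay at -1.55, -2.47 and -1.86 in TG+MI hearts, against -1.12, -0.85 and -0.95 in TG hearts, and differed by -0.98 ± 0.31 (limma adjusted p = 0.0771). In both, the TG arrays lay close together above all TG+MI arrays. Kif20a differed by -0.83 ± 0.24 (limma adjusted p = 0.0539).

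The replication genes had a median of 0.09 here, and 0 of the 14 passed (limma, with 1 higher and 0 lower at an unadjusted p under 0.05). Pcna, the sliding clamp of DNA polymerase, came nearest: it lay at 3.31, 3.57 and 3.37 in TG+MI hearts, against 2.98, 3.05 and 3.01 in TG hearts (0.40 ± 0.11, limma adjusted p = 0.0553). Its groups did not overlap. E2f1 lay at -2.62, -2.24 and -1.49 in TG+MI hearts, against -2.92, -3.19 and -3.35 in TG hearts, and did not pass either (1.04 ± 0.33, limma adjusted p = 0.076).

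**Figure D3:**
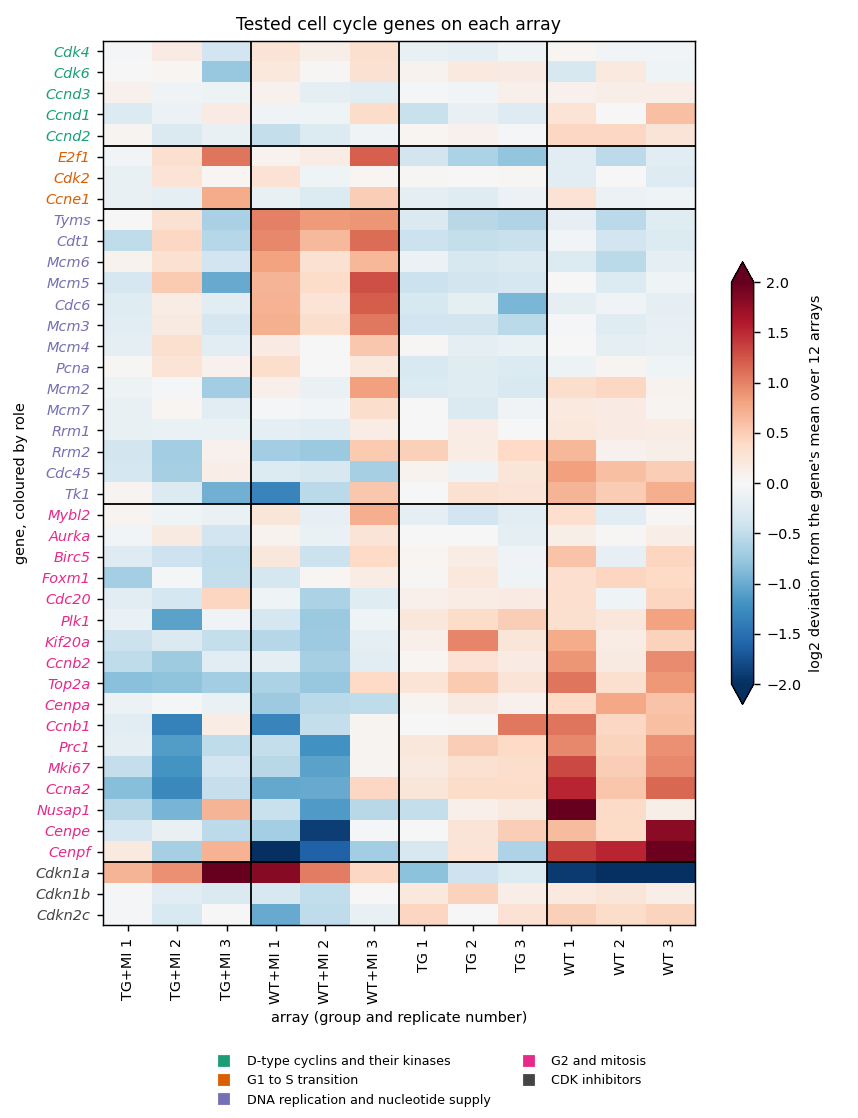
Log2 deviation of each tested member from its mean over 12 arrays, with colours that saturate beyond 2 log2 units; columns are arrays and rows are genes, grouped by role and ordered within a role by WT+MI minus WT. The upper replication genes are red on the WT+MI arrays, the mitosis genes are blue on most infarcted hearts and mostly red on the WT arrays, and Cdkn1a is blue on the WT arrays.

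The transgene after infarction was examined in TG+MI against WT+MI. Here 4 replication genes fell, Cdt1, Tyms, Mcm3 and Cdc6, and 2 centromere genes rose, Cenpf and Cenpa. These 4 lower and 2 higher of 42 stand against 4.38% of all tested genes lower and 7.79% higher. All 6 had changed the opposite way in WT+MI against WT; the comparisons share the WT+MI arrays, so this is a description of one set of arrays and not a second result.

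Cdt1 lay at -0.34, 0.58 and -0.41 in TG+MI hearts, against 1.13, 0.82 and 1.28 in WT+MI hearts. TG+MI 2 came near the WT+MI arrays, and the other 2 TG+MI arrays lay below the TG arrays, at -0.27, -0.31 and -0.28. The difference from WT+MI was -1.13 ± 0.24 (limma adjusted p = 0.0285). Tyms lay at 0.26, 0.58 and -0.37 in TG+MI hearts, against 1.28, 1.13 and 1.16 in WT+MI hearts, with a difference of -1.03 ± 0.21 (limma adjusted p = 0.0285). Mcm3 lay at 1.07, 1.48 and 0.97 in TG+MI hearts, against 2.02, 1.66 and 2.35 in WT+MI hearts, with a difference of -0.84 ± 0.18 (limma adjusted p = 0.0287). Neither gene had overlapping groups, and TG+MI 2 was the highest TG+MI array in both. Cdc6 lay at -3.30, -2.90 and -3.27 in TG+MI hearts, against -2.35, -2.78 and -1.84 in WT+MI hearts, and sat on the threshold (-0.83 ± 0.24, limma adjusted p = 0.0499). Its call was lost under 8 of 9 other settings, with -0.18 under the slide block, and on leaving out 9 of the 12 arrays. Mcm5 and Mcm6 differed by -1.06 ± 0.33 and -0.60 ± 0.19 and did not pass (limma adjusted p = 0.061 and 0.0605). Over the 14 replication genes the median was -0.40, against 0.09 for all genes; it was -0.18 without WT+MI 3 and -0.25 with slide as a block.

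Cenpf lay at 1.13, 0.27 and 1.64 in TG+MI hearts, against -1.20, -0.68 and 0.24 in WT+MI hearts. TG+MI 2 and WT+MI 3 nearly met, and Cenpf was 2.95-fold higher (limma adjusted p = 0.04); its dim second probe differed by -0.22. Cenpa lay at 1.80, 1.89 and 1.78 in TG+MI hearts, against 1.19, 1.37 and 1.41 in WT+MI hearts. It was higher on every TG+MI array, by 0.50 ± 0.11 (limma adjusted p = 0.0311). The other 15 tested mitosis genes did not pass, and the median of the 17 was -0.07. Mki67, for one, differed by -0.16 with a 95% interval of -0.84 to 0.51, and Ccna2 by -0.33 (-1.17 to 0.51).

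These 2 groups share no slide, so slide and transgene cannot be told apart; with slide as a block, estimated through TG 3, the adjusted p of the 6 lay between 0.648 and 0.909. All 6 calls were lost without WT+MI 1, without TG+MI 1 and without TG+MI 3, each left out alone, and 3 were left without WT 3. Of 7 neutrophil markers 5 fell, with a median of -2.68. Their summed level was 147 to 164 in TG+MI hearts, against 307 to 505 in WT+MI hearts. Of 10 monocyte and macrophage markers 3 fell and 7 lay below 0, with a median of -0.79. Their sums were 135 to 189 in TG+MI hearts, against 118 to 143 in WT+MI hearts. Most of these sums came from the bright marker Ly6c2, which averaged 120 in TG+MI hearts and 70.5 in WT+MI hearts. The part of these cells was not tested.

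**Figure D4:**
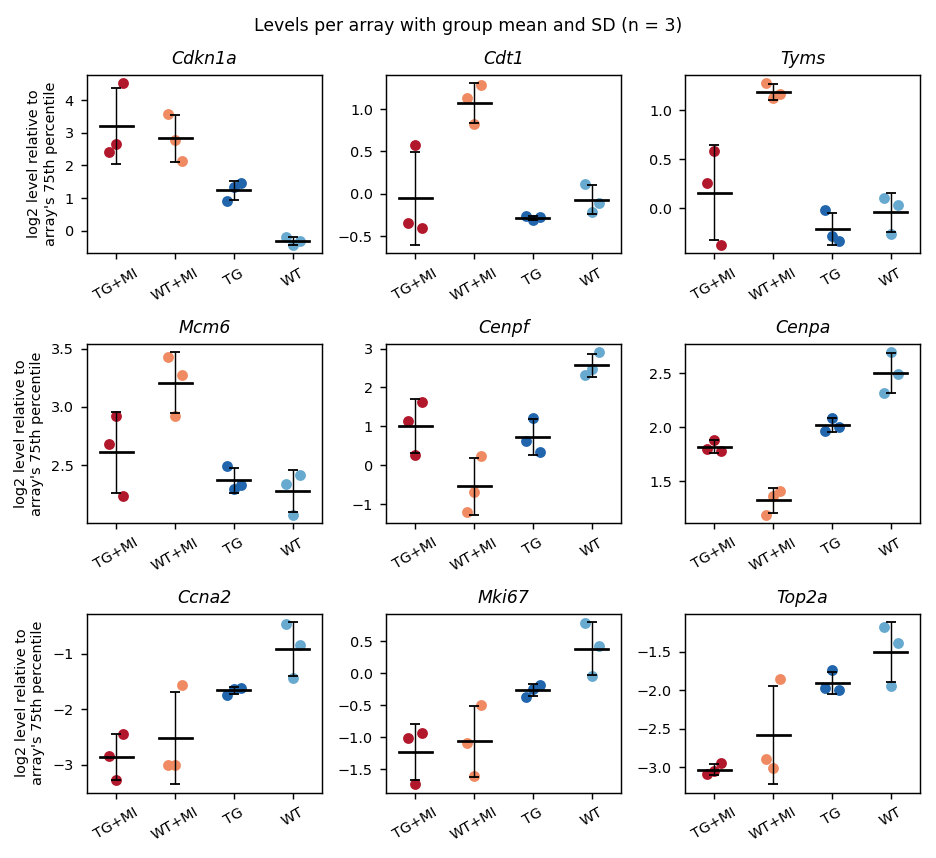
Log2 level relative to the array's 75th percentile for 9 members, with 1 point per array, the group mean and the SD (n = 3). Cdt1 and Tyms are highest in the WT+MI group, while Ccna2, Mki67 and Top2a are highest in the WT group, and Cdkn1a is lowest there.

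Whether the infarction response differed with the transgene was tested as the interaction, the response of TG hearts minus that of WT hearts. Of 42 tested members 2 passed, Cenpf and Cenpa, both with a positive value, and 0 had a negative one (limma, with 5 positive and 3 negative at an unadjusted p under 0.05), against 5.85% of all tested genes positive and 3.05% negative. For Cenpf the response was 0.29 in TG hearts and -3.11 in WT hearts, and the interaction was 3.40 ± 0.58 (limma adjusted p = 0.0231). By its dim second probe the response was -0.68 in TG hearts and -1.39 in WT hearts. For Cenpa it was -0.20 in TG hearts and -1.18 in WT hearts, with an interaction of 0.98 ± 0.16 (limma adjusted p = 0.0227). Both genes were already lower in TG than in WT hearts without infarction, by 1.84 and 0.48, of which the fall of Cenpf passed. With slide as a block the interaction was 3.80 for Cenpf (adjusted p = 0.125) and had an adjusted p of 0.151 for Cenpa, and both calls were lost without WT 2, WT 3, TG 1 or TG+MI 1.

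For the other members the responses were not shown to differ. Of the 24 members called in WT hearts, 23 had the same sign in TG hearts, 23 had a smaller difference there and 2 were called; they were picked for their difference in WT hearts, so nothing is read from this count. The interaction of Cdt1 was -0.91 ± 0.33 (limma adjusted p = 0.0947), that of Tyms -0.86 ± 0.30 (0.0847), and that of Cdkn1a -1.18 ± 0.71 (0.271). For Mki67 it was 0.49 with a 95% interval of -0.47 to 1.44, and for Top2a -0.05 (-0.93 to 0.84).

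**Figure D5:**
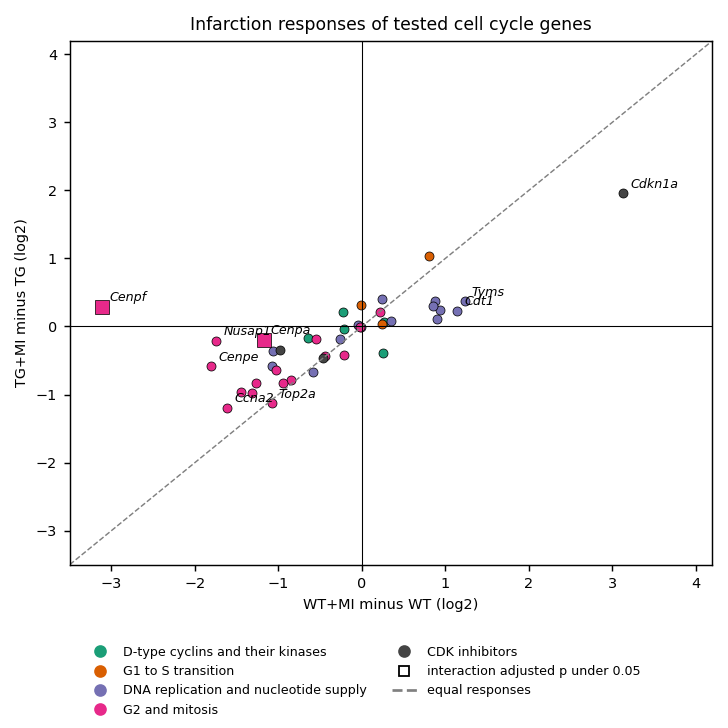
Infarction response of each tested member, with TG+MI minus TG on the vertical axis and WT+MI minus WT on the horizontal axis, both log2. Squares passed the interaction test: Cenpf, at 0.29 and -3.11, and Cenpa, at -0.20 and -1.18. The dashed line marks equal responses, and Cdkn1a, at 1.96 and 3.13, is the highest point.

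Other genes of these pathways were counted by lists, read here in WT+MI against WT, where 18.6% of all tested genes rose and 29.3% fell. Of 26 further replication genes tested, 8 rose (30.8%) and 4 fell (15.4%), with a median of 0.29. Pole2, a subunit of DNA polymerase epsilon, rose by 3.32 ± 0.66 (limma adjusted p = 0.00262), and Mcm10 by 1.08 ± 0.30 (limma adjusted p = 0.0132). Gmnn, the inhibitor of Cdt1, fell (-1.26 ± 0.29, limma adjusted p = 0.00545). Of 30 further mitosis genes tested, 10 fell (33.3%, near the share of all genes) and 2 rose (6.67%), with a median of -0.60. Among them the condensin subunit Ncapd2 fell (-0.99 ± 0.14, limma adjusted p = 0.000503), as did Cep55 of the midbody (-1.23 ± 0.18, limma adjusted p = 0.00058) and Nuf2 of the kinetochore (-1.22 ± 0.24, limma adjusted p = 0.0024). Cks1b, a small subunit of cyclin-dependent kinases, rose (1.21 ± 0.22, limma adjusted p = 0.00184). An E2F motif stood in 8 of the 24 windows of the replication list and a CHR motif in 26 of the 35 windows of the mitosis list.

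Among 17 further E2F, pocket protein and MuvB genes, 1 rose (5.88%) and 4 fell (23.5%), both below the shares of all genes. E2f4, which pairs with pocket proteins as a repressor, rose by 1.19 ± 0.27 (limma adjusted p = 0.00535). Rbl2, the pocket protein p130, fell (-0.97 ± 0.18, limma adjusted p = 0.00161), as did Lin52 of the MuvB complex (-0.88 ± 0.10, limma adjusted p = 0.000251) and the repressor E2f6 (-0.86 ± 0.18, limma adjusted p = 0.00335). Of 14 other brakes of the cycle, 5 rose (35.7%) and 4 fell (28.6%, near that of all genes). Gadd45g, a stress gene, rose by 3.36 ± 0.30 (limma adjusted p = 6.43e-05), and Cdkn1c, which encodes p57, fell (-1.81 ± 0.21, limma adjusted p = 0.000208), as did the cyclin Ccng1 (-0.99 ± 0.17, limma adjusted p = 0.00119).

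Of 18 genes of p53 and its targets, a list that holds Btg2 and Ccng1 of the list before it too, 9 rose (50%) and 3 fell (16.7%), with a median of 0.53, against 18.6% and 29.3% of all tested genes. Btg2, which restrains proliferation, rose by 2.94 ± 0.22 (limma adjusted p = 3.33e-05). The cell death genes Bax and Pmaip1 rose by 1.32 ± 0.14 (limma adjusted p = 0.000153) and 2.31 ± 0.32 (limma adjusted p = 0.000442), and the kinase Plk3 by 2.25 ± 0.30 (limma adjusted p = 0.00042). Of 11 tested genes of the Myc network and cyclin turnover, 2 rose (18.2%, near that of all genes) and 6 fell (54.5%). Myc rose by 3.53 ± 0.35 (limma adjusted p = 0.00011), while its relative Mycn fell (-2.29 ± 0.29, limma adjusted p = 0.000331). The ubiquitin ligase genes Fbxw7 and Cul4a fell too (-0.93 ± 0.21 and -0.50 ± 0.12, limma adjusted p = 0.00513 and 0.00776).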

How the data were processed

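Per the labels, total RNA was amplified and labelled with Cy3; the file headers name Agilent Feature Extraction, and the authors deposited its processed intensity on a linear scale, not normalized between arrays. The authors also deposited a table of log2 values of the same arrays, used as an alternative. Of tools, limma alone is listed in the submitters' processing notes, with no version.

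Deposited intensity was taken to log2, outlier spots were left out, spots of a probe were averaged, and each array's 75th percentile over probes was subtracted. Each gene took the probe with the highest mean. A gene was tested if, in 1 group or more, each of the 3 arrays had it well above background (19761 of 36981), with limma 3.58.1 (lmFit, eBayes) in R 4.3.3, in 1 group-means model over 12 arrays, with Benjamini-Hochberg adjustment over all tested genes and a threshold of 0.05. The CCRR transcript was not analysed here. The number of arrays limits the precision. The fit was tested on simulated data.

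The members and all lists were chosen with earlier results of these data known. Values on every array are given for the 20 members with the lowest adjusted p and for those called in the interaction, in TG+MI against WT+MI or in TG against WT; of each further list up to 4 called genes with the lowest adjusted p in a comparison are named. Alternatives were normexp background correction (offset 50), quantile normalization, the authors' table, other probe and gene filters, the mean over probes, an intensity trend with a robust prior, slide and replicate blocks, and leaving out each array. Promoter motifs were sought in the RefSeq table, in the first window listed per gene. Probe coordinates are on mm9, per the file headers. Plots were drawn with matplotlib.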

Additional observations from a re-analysis of the deposited data

Results flagged for a closer look

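The interaction test, which compares the infarction responses of TG and WT hearts, was passed by 2 of 42 tested members. Of 114 tested genes of the further lists 9 passed. Among all 19761 tested genes 1758 passed, so nothing particular to these genes is read from the counts. Positive values, where the response of TG hearts was above that of WT hearts, were 0.98 for Cenpa, 3.40 for Cenpf, 1.20 for the kinetochore gene Spc24, 0.94 for Lin52, 1.10 for Cdkn1c, 2.11 for Mycn and 1.13 for Fbxw7. Negative values were -2.28 for Btg2, -1.96 for Gadd45g, -1.09 for Bax and -1.63 for Plk3. Limma adjusted p lay between 0.0154 (Btg2) and 0.0463 (Cdkn1c and Fbxw7). With slide as a block all 11 calls were lost, with an adjusted p of 0.125 to 0.245 for the 9 further genes.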

How the results depend on the processing

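No called result changed direction under the alternatives run. In WT+MI against WT, 24 members passed, with 18 to 24 under the other settings and 19 to 27 with 1 array left out, and 16 of the 24 passed under every setting tried. The other comparisons hold fewer calls. In TG against WT 1 member passed: 2 with normexp, with the authors' table, with probes above background on all 12 arrays and with the intensity trend, and 0 without a filter on dim probes, with the slide block, within slide 1 and with the replicate block. In TG+MI against WT+MI 6 passed, and 0 without a filter or with the slide block. In TG+MI against TG 2 passed: 4 with probes above background on all 12 arrays or the intensity trend, and 0 without a filter or with the slide block. In the interaction 2 passed, and 0 without a filter or with the slide block. Leaving out 1 array gave 0 to 3, 0 to 9, 0 to 7 and 0 to 5 calls in these 4 comparisons, in the order given; the highest counts came without TG+MI 3, TG+MI 2, WT+MI 3 and TG+MI 2. The call in TG against WT was lost without any 1 of the WT or TG arrays, WT+MI 2 or TG+MI 1, and 2 passed without WT+MI 1. In TG+MI against WT+MI 0 passed without WT+MI 1, TG+MI 1 or TG+MI 3, and 3 without WT 3. In TG+MI against TG 0 passed without any 1 of the TG arrays, WT 3 or TG+MI 2, and 1 without WT 1, WT 2 or TG+MI 1. In the interaction 0 passed without WT 2, WT 3, TG 1 or TG+MI 1. Without a filter more dim genes enter the adjustment; the other causes were not tested.

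Same-numbered samples deviated from their group means with correlations of -0.26 to 0.12, and differently numbered ones with -0.18 to 0.25. These ranges overlap, with each group mean taken over 3 arrays. Whether the numbers pair the samples was not tested further. With the replicate block 24, 0, 5, 3 and 2 members passed in the 5 comparisons, in the order above. The filter for signal over background left 8 members untested, and of the dim members Cdc45, Cdc6 and Ccnb1 lost their calls with normexp.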

Other observations

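Beyond the members, the brakes of the cycle and the p53 targets were also read in the comparisons with the transgene. In TG against WT, Btg2 rose by 1.62 ± 0.22 (limma adjusted p = 0.0074) and Gadd45g by 1.42 ± 0.30 (limma adjusted p = 0.037, and 0.0634 with slide as a block), without infarction. Mycn fell by 1.97 on the log2 scale (limma adjusted p = 0.009). In TG+MI against WT+MI, 4 of the 18 genes of p53 and its targets fell and 2 rose, against 4.38% and 7.79% of all tested genes: Trp53, the gene of p53, fell (-1.03 ± 0.18, limma adjusted p = 0.0239), as did Bax (-0.90 ± 0.14, limma adjusted p = 0.0239), Pmaip1 (-1.24 ± 0.32, limma adjusted p = 0.0377) and Plk3 (-1.15 ± 0.30, limma adjusted p = 0.04), while Sesn1 and Ccng1 rose by 1.12 ± 0.31 and 0.61 ± 0.17 (limma adjusted p = 0.0455 and 0.0454). Cdkn1c rose there 1.99-fold (limma adjusted p = 0.0285) and Gmnn rose by 1.03 ± 0.29 (limma adjusted p = 0.0463), while Mcm10 fell (-1.06 ± 0.30, limma adjusted p = 0.0457). These groups share no slide, and with slide as a block all 19 calls among the further lists were lost here (adjusted p of 0.648 to 0.9); without TG+MI 1, 0 of 19761 genes passed. In TG+MI against TG, Myc rose by 1.97 ± 0.35 (limma adjusted p = 0.00968). Nuf2 was below background on all TG+MI arrays and differed from TG hearts by -1.47 (limma adjusted p = 0.00612). With TG+MI values raised to at least the lowest value well above background on each array, Nuf2 was 2.04-fold lower. With slide as a block all 8 calls of these lists in TG+MI against TG were lost.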
